A study of Mus musculus with 6 samples.

Results

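The BCL2 family decides at the mitochondrial outer membrane whether a cell starts apoptosis. Anti-apoptotic members hold the pathway shut, BH3-only members sense stress and bind the anti-apoptotic members or activate the effectors, and the effectors open pores that release cytochrome c and so switch on caspases. Carcinoma cells commonly depend on 1 or more of the anti-apoptotic proteins, and much of the control lies in protein turnover, phosphorylation and cleavage, which mRNA levels do not show. The 9 genes described here were chosen by symbol, with earlier results of these data known, from the 16426 genes of the deposited table: the anti-apoptotic Bcl2, Bcl2l1, Bcl2l2 and Mcl1, the BH3-only Bcl2l11, Bid, Bad and Pmaip1, and the effector Bak1. All 9 were in the table, 8 passed the filter for expression (at least 1 FPKM in at least 3 libraries) and Pmaip1 did not. The 9 are a part of the family. Other members, such as Bax and the p53 target Bbc3, were not among them and are reported further below.

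The cells were 4T1-LM3, a line of mouse mammary carcinoma cells, and mRNA was measured in 6 samples. In 3 samples the cells had received conditioned medium (CM) from matrix fibroblasts (MFs) described as Tdo2high, that is, high in the enzyme tryptophan 2,3-dioxygenase, and 3 samples had received control CM, with no statement in the labels of which cells had made it. All samples share the same line and are untreated otherwise, as far as the labels say. No group labelled as medium from fibroblasts low in Tdo2 was analysed here. Effects of Tdo2 and of any other difference between the media cannot be told apart, and nothing in the labels states that replicates came from separate cultures. The p-values therefore speak of the spread among these 6 samples, part or all of which may be technical.

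Values are FPKM (fragment counts divided by transcript length and library size), so levels of different genes can be compared per length. Library totals ran from 438603 to 447415 FPKM, and read depth is unknown. The limma test called 801 of the 10804 tested genes (7.41%, adjusted p under 0.05): 362 were higher with Tdo2high CM (3.35%) and 439 lower (4.06%). That balance depends on the scaling: with scaling by the median of ratios 434 genes were called higher and 371 lower, and with TPM 314 higher and 496 lower. The epithelial keratins Krt8 and Krt18 were abundant in every library, whereas Epcam and Cdh1, which mark epithelial cells, stayed at or below 0.11 FPKM. The table held 7 of the listed fibroblast markers, and 3 of them were under 1 FPKM throughout, Col1a1 included (at most 0.12 FPKM). Of 5 myeloid markers in the table, 4 were under 1 FPKM throughout. The summed level of the 7 fibroblast markers was 122 to 126 FPKM with Tdo2high CM and 110 to 114 FPKM with control CM, with Npnt and Pdgfra higher and Dcn lower; the part of other cells in the results below was not tested.

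None of the 8 tested BCL2 family members among the 9 chosen passed the test for a change with Tdo2high CM. Bbc3, a family gene outside the 9, was called lower and is described below. At the threshold that called 7.41% of all tested genes, 0 of 8 were called higher (3.35% of all tested genes) and 0 of 8 lower (4.06% of all tested genes), with adjusted p from 0.314 to 0.870 by limma, and 0 of 8 reached an unadjusted p under 0.05, against 23.7% of all tested genes. In 0 of 8 were the 3 values of 1 group clear of the 3 values of the other, against 29.2% of all tested genes. The log2 fold changes ran from -0.07 to 0.07, with a median of 0.03 beside -0.01 over all tested genes; 5 were positive and 3 negative. The 95% intervals of the 8 genes lay between changes of -9.80% and 13.4% in FPKM + 1. These bounds depend on single libraries. Without Tdo2high CM replicate 1 the interval of Bcl2l1 reached -0.18 on the log2 scale, against -0.15 with all libraries. Without control CM replicate 1 that of Bcl2l2 reached 0.23, against 0.18. In 2 such fits an interval excluded 0. Bcl2l1 without Tdo2high CM replicate 1 had -0.18 to -0.01 (unadjusted p = 0.0267, adjusted p = 0.175 by limma). Bad without control CM replicate 2 had 0.02 to 0.19 (unadjusted p = 0.0237, adjusted p = 0.155 by limma). A p that misses the threshold does not show that the levels were the same. In bulk RNA, fewer cells that express a gene and less of its RNA per cell cannot be told apart.

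**Figure D1:**
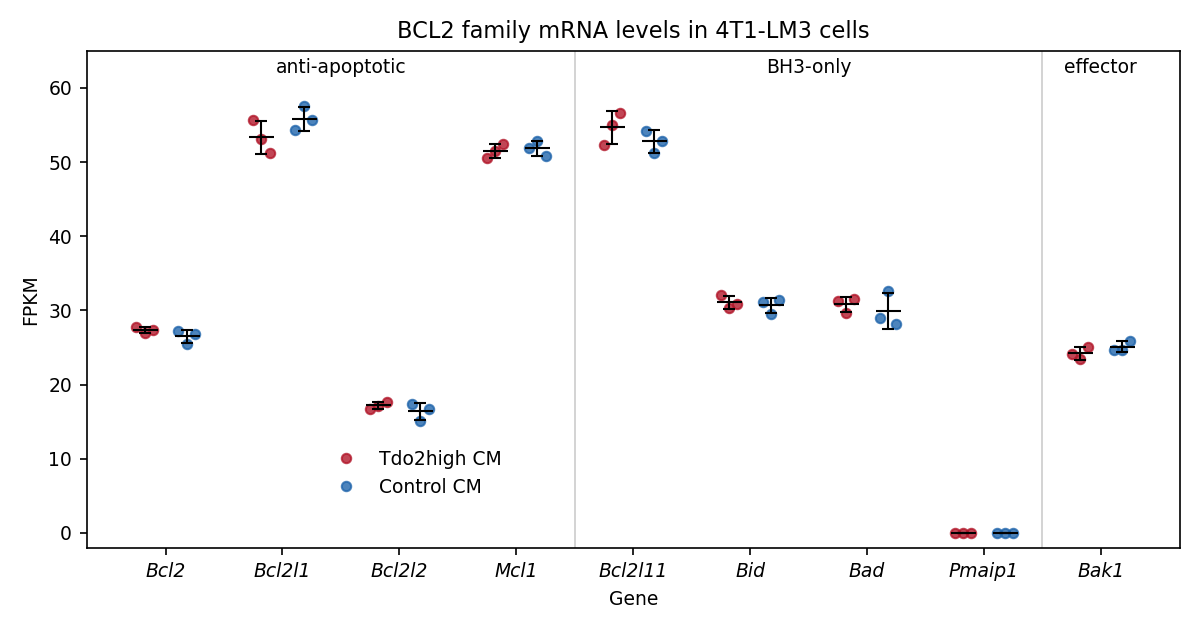
FPKM of the 9 BCL2 family genes in each library, with Tdo2high CM (red) left of control CM (blue). Points are libraries, black bars the mean and SD of 3 libraries. The groups overlap for every gene, Bcl2l11, Bcl2l1 and Mcl1 lie above 50 FPKM in all libraries, and Pmaip1 lies at or below 0.04 FPKM.

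Bcl2l1 encodes BCL-XL, a main survival protein of many carcinomas, and it had the lowest adjusted p of the 8. Its level was 55.7, 53.0 and 51.2 FPKM in the 3 Tdo2high CM libraries, against 54.3, 57.6 and 55.7 FPKM in the 3 control CM libraries. The lowest values came from Tdo2high CM replicates 2 and 3, but Tdo2high CM replicate 1 stood above control CM replicate 1. The means were 53.3 ± 2.27 FPKM with Tdo2high CM and 55.9 ± 1.61 FPKM with control CM (SD, n = 3 each), a log2 fold change of -0.07 (95% interval -0.15 to 0.02, adjusted p = 0.314 by limma). The gene has 5 curated RefSeq mRNAs, and the table gives 1 value per gene, so the long and short splice forms, which have opposite effects on survival, cannot be told apart.

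Mcl1 encodes a short-lived survival protein that needs continuous synthesis. It had 50.5, 51.5 and 52.4 FPKM with Tdo2high CM, against 51.9, 52.8 and 50.8 FPKM with control CM. The ranges of the groups covered nearly the same values. With a log2 fold change of -0.01 (95% interval -0.08 to 0.06, adjusted p = 0.870 by limma) and an SE of 0.03, it had the narrowest interval of the 8 members.

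Bcl2, the founding survival gene of the family, had 27.7, 27.0 and 27.3 FPKM with Tdo2high CM, against 27.2, 25.5 and 26.8 FPKM with control CM. The lowest value was that of control CM replicate 2, the other control libraries fell among or next to the Tdo2high CM values, and the log2 fold change was 0.04 (95% interval -0.03 to 0.12, adjusted p = 0.490 by limma). Bcl2l2, which encodes BCL-W, was the least abundant of the 4 anti-apoptotic members. Its level was 16.7, 17.2 and 17.7 FPKM with Tdo2high CM, against 17.3, 15.1 and 16.8 FPKM with control CM. Here too control CM replicate 2 was the low library, and the log2 fold change was 0.07 (95% interval -0.05 to 0.18, adjusted p = 0.473 by limma).

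Among BH3-only members, Bcl2l11 encodes BIM, which binds all anti-apoptotic members and can activate the effectors directly. It had 52.3, 55.0 and 56.7 FPKM with Tdo2high CM, against 54.2, 51.2 and 52.9 FPKM with control CM. The highest values came from Tdo2high CM replicates 2 and 3, and replicate 1 of that group fell inside the control range. Its means of 54.7 ± 2.18 FPKM with Tdo2high CM and 52.8 ± 1.54 FPKM with control CM (SD, n = 3 each) gave a log2 fold change of 0.05 (95% interval -0.03 to 0.13, adjusted p = 0.451 by limma). BIM also has splice forms of different potency, which the single value of the gene pools.

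Bid encodes a protein that caspase-8 cuts to link death receptors to the mitochondria. It had 32.1, 30.4 and 30.8 FPKM with Tdo2high CM, against 31.1, 29.5 and 31.4 FPKM with control CM. The values interleaved, with a log2 fold change of 0.02 (95% interval -0.06 to 0.10, adjusted p = 0.791 by limma). Bad encodes a sensitizer that survival kinases silence by phosphorylation. Its level was 31.2, 29.7 and 31.6 FPKM with Tdo2high CM, against 28.9, 32.6 and 28.2 FPKM with control CM. The control libraries held both its highest and its lowest value, and the log2 fold change was 0.04 (95% interval -0.07 to 0.16, adjusted p = 0.658 by limma).

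Pmaip1 (chr18:66458604-66465558 on GRCm38, per RefSeq), which encodes NOXA, a partner of MCL1, was listed at 0, 0 and 0.02 FPKM with Tdo2high CM, against 0.02, 0 and 0.04 FPKM with control CM. It was below 1 FPKM in all 6 libraries, so neither a fold change nor a test is given. Pmaip1 was the only member of the 9 below 1 FPKM in any library, and none was absent from the table.

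Bak1 encodes an effector that sits in the mitochondrial outer membrane and forms pores once activated. It had 24.2, 23.4 and 25.1 FPKM with Tdo2high CM, against 24.7, 24.7 and 25.9 FPKM with control CM. Tdo2high CM replicate 3 stood above 2 of the 3 control libraries, and the log2 fold change was -0.05 (95% interval -0.13 to 0.03, adjusted p = 0.464 by limma).

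**Figure D2:**
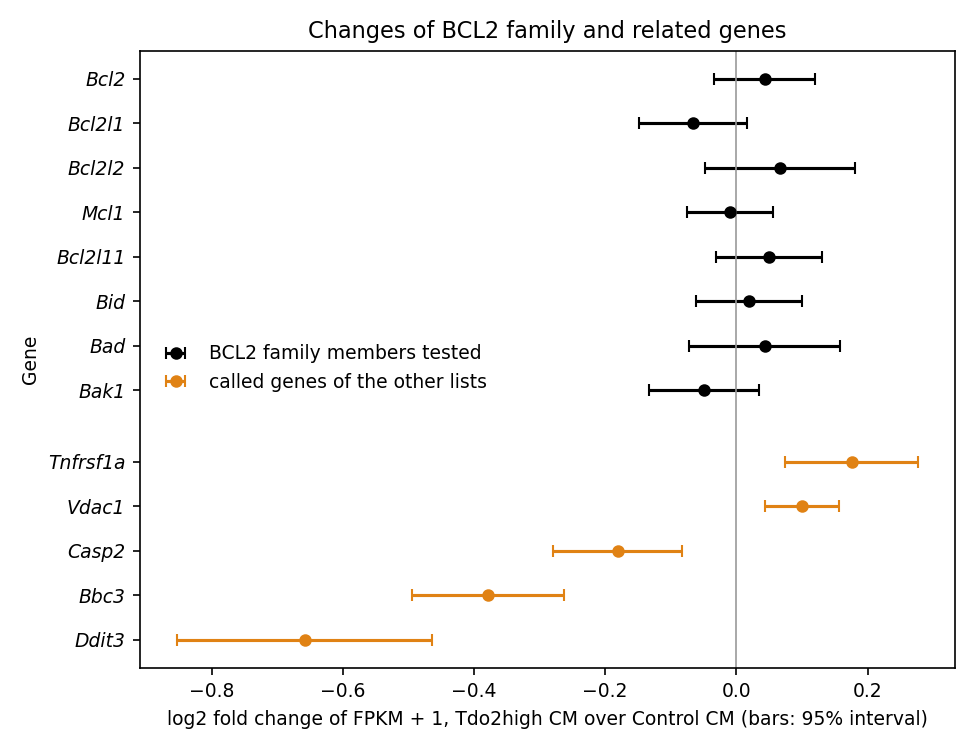
Log2 fold change of FPKM + 1, Tdo2high CM over control CM, with 95% intervals from the limma fit over all tested genes. With all 6 libraries, the intervals of the 8 tested BCL2 family members (black) all include 0. The 5 called genes of the related lists (orange) run from -0.66 for Ddit3 to 0.18 for Tnfrsf1a.

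The order of the levels was similar with either medium. With Tdo2high CM, Bcl2l11, Bcl2l1 and Mcl1 formed the top step, and neighbours within it overlapped. In control CM libraries Bcl2l1 came first and its values were clear, by a small margin, of those of Bcl2l11, whose range overlapped that of Mcl1. Bid and Bad followed in the middle step and overlapped each other in both groups. Bcl2, Bak1 and Bcl2l2 came next in that order; Bcl2 and Bak1 were clear of each other with Tdo2high CM and overlapped with control CM. Among all 10804 tested genes the 8 members stood between percentile 55.7 of mean level, for Bcl2l2, and percentile 86.8, for Bcl2l1. Pmaip1 was far below the rest.

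Levels were also added up by role within each library. The 4 anti-apoptotic members summed to 151, 149 and 149 FPKM with Tdo2high CM, against 151, 151 and 150 FPKM with control CM, and the ranges overlapped. For the 4 BH3-only members the sums were 116, 115 and 119 FPKM with Tdo2high CM, against 114, 113 and 113 FPKM with control CM. Those ranges did not overlap, although no single BH3-only member was clear of overlap. The sums closest to each other were those of Tdo2high CM replicate 2 and control CM replicate 1. Their library totals differed, at 445209 and 438603 FPKM. As shares of the library totals, the BH3-only sums of the groups overlap, so their separation depends on the scaling. It also depends on the choice of members. Left out of these sums are the BH3-only genes Bbc3, which was lower with Tdo2high CM (log2 fold change -0.38), and Bmf (-0.02). The ratio of the first sum to the second was 1.30, 1.29 and 1.25 with Tdo2high CM, against 1.32, 1.33 and 1.33 with control CM. The groups were clear of each other in this ratio, which a scaling of whole libraries does not change. It rests on the same choice of members. Sums of this kind were formed after the values were known and carry no test; 29.2% of single tested genes also had groups clear of each other.

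**Figure D3:**
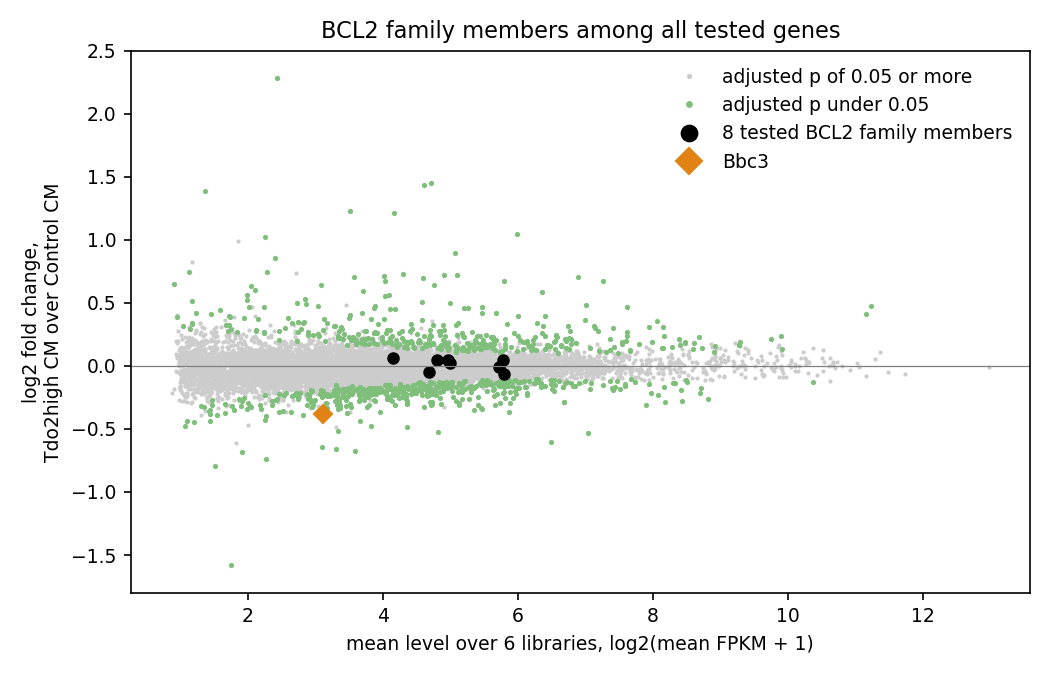
Log2 fold change against mean level, log2(mean FPKM over 6 libraries + 1), for all 10804 tested genes, with called genes in green. The 8 tested BCL2 family members (black) lie within 0.07 of 0 with all 6 libraries, inside the band of genes that were not called, and Bbc3 (orange) lies below it at -0.38.

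The 8 tested members lie on 7 chromosomes of GRCm38, per RefSeq, and 2 of them share chromosome 2. Bcl2l11 spans chr2:128126038-128162547 and Bcl2l1 chr2:152758732-152833803. Bcl2 spans chr1:106538176-106714290, Mcl1 chr3:95656944-95663179, Bid chr6:120893119-120917062 and Bcl2l2 chr14:54883366-54890858. Bak1 spans chr17:27019812-27028627 and Bad chr19:6941861-6951905. The Bad locus overlaps Gpr137, at 7.47 FPKM with Tdo2high CM and 7.07 FPKM with control CM, and strand use in counting is not given in the sources used here, so a part of Bad's value could come from that neighbour. Protein-coding genes that overlap Bcl2l1, Bcl2l11 and Bak1 (Cox4i2, Acoxl and Ggnbp1) had group means of at most 1.28 FPKM.

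Most start regions of the members are rich in CG dinucleotides, a usual feature of broadly expressed genes. RefSeq sequences on GRCm38.p6 were used for 8 of the 9 members, with 12 annotated starts. The chromosome that holds Pmaip1 was left out, so the counts and the choice below do not cover that gene. In the 250 bases before the start, 11 of the 12 held more CG than the median of 6 over all 32851 starts; the exception was a start of Bcl2l1 with 0. To show how unlike these regions are, the members with the most and the fewest CG among the 5 with a single start are printed, 5′ to 3′ on the gene's strand (minus for both), with CG in capitals. Bcl2 (chr1:106714291-106714540) holds 36, a number reached by 2.58% of all starts, and Bak1 (chr17:27028628-27028877) holds 8, reached by 43.0%.
Bcl2: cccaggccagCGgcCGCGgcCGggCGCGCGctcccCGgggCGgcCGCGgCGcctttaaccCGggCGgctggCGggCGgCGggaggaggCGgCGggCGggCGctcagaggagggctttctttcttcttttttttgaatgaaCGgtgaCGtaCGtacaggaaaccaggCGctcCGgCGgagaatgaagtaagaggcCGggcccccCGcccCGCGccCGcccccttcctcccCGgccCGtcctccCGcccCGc
Bak1: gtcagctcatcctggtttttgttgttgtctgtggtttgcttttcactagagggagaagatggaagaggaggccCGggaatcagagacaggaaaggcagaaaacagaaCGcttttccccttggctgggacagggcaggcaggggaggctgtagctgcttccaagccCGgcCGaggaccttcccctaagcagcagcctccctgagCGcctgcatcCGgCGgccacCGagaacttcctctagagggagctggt
Bak1 had 24.2 ± 0.857 FPKM with Tdo2high CM and 25.1 ± 0.717 FPKM with control CM (SD, n = 3 each). Bcl2 had 27.4 ± 0.376 FPKM with Tdo2high CM and 26.5 ± 0.883 FPKM with control CM (SD, n = 3 each). A link between start regions and levels was not tested.

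Around the 9 members, 50 further genes of the pathway are reported, of which 47 were in the table and 43 were tested. In all 2 rose and 3 fell with Tdo2high CM, 5 of 43, beside 7.41% of all tested genes; the median log2 fold change of the 43 was 0.01. Without control CM replicate 2 the count was 6; it was 3 without Tdo2high CM replicate 1 and 2 without any other single library. Of the 10 tested genes in the list of other BCL2 family members, 1 fell and none rose, beside 4.06% and 3.35% of all tested genes. That gene was Bbc3, which encodes PUMA, a BH3-only protein and a p53 target. It had 6.85, 6.56 and 6.13 FPKM with Tdo2high CM, against 8.94, 8.44 and 8.92 FPKM with control CM. Every Tdo2high CM library was below every control library, and the log2 fold change was -0.38 ± 0.05 (SE, adjusted p = 0.00236 by limma).

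The other effectors did not pass the test with all 6 libraries. Bax, whose product moves to mitochondria to form pores, averaged 52.1 ± 2.14 FPKM with Tdo2high CM and 50.6 ± 5.40 FPKM with control CM (SD, n = 3 each; log2 fold change 0.05, adjusted p = 0.710 by limma). Bok, an effector-like member, averaged 29.8 ± 0.557 FPKM with Tdo2high CM and 28.1 ± 2.43 FPKM with control CM (0.09, adjusted p = 0.349). Without control CM replicate 2, its highest library, Bok was called higher (0.16, adjusted p = 0.0387 by limma). Bmf, a further BH3-only gene, had a log2 fold change of -0.02 at 17.4 ± 0.154 FPKM with Tdo2high CM and 17.7 ± 0.607 FPKM with control CM. Bik, Hrk, Bcl2l10 and Bcl2l14 stayed below 1 FPKM in every library, as Pmaip1 did.

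In the list of apoptosome and caspase genes, 1 of the 13 tested genes reported here fell and none rose, beside 4.06% of all tested genes called lower and 3.35% called higher. Casp2, an initiator caspase, had 10.2, 10.2 and 10.8 FPKM with Tdo2high CM, against 11.8, 11.6 and 12.4 FPKM with control CM. Its fall (-0.18 ± 0.04, SE, adjusted p = 0.0350) was not called in any of the 6 fits without 1 library, where adjusted p ran from 0.0526 to 0.113 by limma. Apaf1, the scaffold of the apoptosome, and Casp9, which it activates, did not pass, with log2 fold changes of -0.09 and -0.05.

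Among 6 death receptor genes, Tnfrsf1a, the main TNF receptor, rose, 1 of 6 beside 3.35% of all tested genes, to 54.9, 50.6 and 51.4 FPKM with Tdo2high CM, against 43.3, 48.4 and 46.9 FPKM with control CM (log2 fold change 0.18, adjusted p = 0.0445 by limma). Vdac1, which encodes an outer membrane channel, also rose, 1 of 3 channel genes beside the same 3.35%, to 183, 186 and 184 FPKM with Tdo2high CM, against 171, 174 and 171 FPKM with control CM (0.10, adjusted p = 0.0410). Each of these calls ended in 5 of the 6 fits without 1 library, with adjusted p up to 0.133 for Tnfrsf1a and 0.127 for Vdac1 by limma. The fits that kept them were those without control CM replicate 2, at 0.0390 and 0.0475.

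None of 6 apoptosis inhibitor genes passed, beside 7.41% of all tested genes. The most abundant were Birc5, which encodes survivin, at 52.3 ± 2.39 FPKM with Tdo2high CM and 49.2 ± 3.11 FPKM with control CM (SD, n = 3 each; adjusted p = 0.305 by limma), and Xiap, a direct caspase inhibitor, at 25.2 ± 1.09 FPKM with Tdo2high CM and 24.5 ± 0.989 FPKM with control CM (adjusted p = 0.606). Of 5 listed regulators of MCL1 and BIM, 1 fell, beside 4.06% of all tested genes. This was Ddit3, which encodes the stress factor CHOP, an activator of Bcl2l11 and Bbc3 in other settings, at 7.92, 6.56 and 5.68 FPKM with Tdo2high CM, against 11.1, 10.9 and 11.4 FPKM with control CM (log2 fold change -0.66 ± 0.09, SE, adjusted p = 0.00195 by limma).

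**Figure D4:**
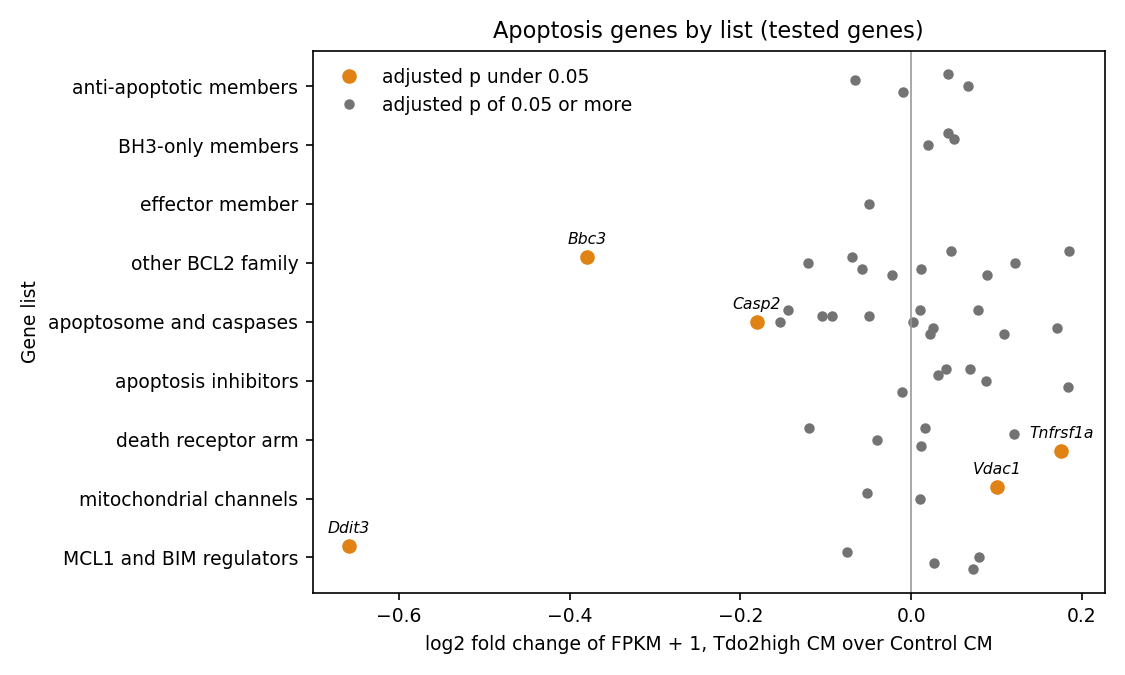
Log2 fold change of the tested genes of the BCL2 family and related lists, Tdo2high CM over control CM, each point a gene and each row a list. The 5 called genes (orange) are Bbc3, Casp2, Tnfrsf1a, Vdac1 and Ddit3; no point in the 3 rows of members is called.

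Over the 6 samples, the tested genes whose log2(FPKM + 1) was most like that of Bcl2l1 by Pearson's r were Uba6 (0.99), Rapgef1 (0.98) and Sf3a2 (0.98). With 6 libraries and 10804 genes, values this high are a description only, and none of the 3 genes passed the test (adjusted p from 0.282 to 0.552 by limma).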

How the data were processed

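Polyadenylated RNA was copied with random hexamers, per the labels' protocols; the build was GRCm38, per the submitters' processing notes. The aligner, annotation and quantifier were not given in the sources used here. Deposited by the authors was a table holding FPKM, per the file headers, for 16426 genes, rounded to 2 decimals. Groups come from the sample titles, matched to columns by name. The 10804 genes that reached 1 FPKM in 3 or more libraries were tested as log2(FPKM + 1) by limma 3.58.1 in R 4.3.3 (two-sided, variance trend, replicate number not in the model). P-values were adjusted by Benjamini-Hochberg over all of these genes, and 0.05 was the threshold. The log2(FPKM + 1) scale understates the change of low genes. Exact permutation of 3 against 3 samples cannot go below p = 0.1, so none is reported.

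The members and gene lists were chosen with earlier results of these data known. All 9 members are described; of the related lists, every called gene among those reported is named, and of a list without one the 2 most abundant. Bax, Bok, Bmf, Apaf1, Casp9, Gpr137 and the genes under 1 FPKM were named outside that rule, after their values were seen. Positions and start regions are RefSeq's on GRCm38.p6. A gene of the related lists is not reported here and is left out of their counts. A total of 16 alternative settings were run. Figures were drawn with matplotlib 3.10.9.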

Additional observations from a re-analysis of the deposited data

How the results depend on the processing

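None of the 8 tested members was called under any of the 16 alternatives: pseudocounts of 0.1 and 0.5, no filter, a filter of 5 FPKM, TPM, the median of ratios, quantile normalization, limma without trend or with robust variances, a replicate block, and leaving out each library. The lowest adjusted p of any member was 0.155, for Bad without control CM replicate 2. The median log2 fold change of the members ran from 0.0064 to 0.04. Uncalled values near 0 changed sign for Bid without Tdo2high CM replicate 1 (-0.0026) and without control CM replicate 2 (-0.0079), and for Mcl1 under the median of ratios (0.0025), without Tdo2high CM replicate 1 (0.0032) and without control CM replicate 2 (0.0026). Without 1 library Bid ran from -0.0079 to 0.036 and Mcl1 from -0.024 to 0.0032. The other members kept their sign: Bad ran from 0.0036 to 0.11, Bcl2l2 from 0.01 to 0.11, Bcl2 from 0.02 to 0.06, Bcl2l11 from 0.02 to 0.08, Bcl2l1 from -0.10 to -0.04 and Bak1 from -0.08 to -0.03. Of the related genes, Bbc3 and Ddit3 were called under all 16; the calls of Casp2, Tnfrsf1a and Vdac1 ended in 7, 9 and 10. Called related genes, 5 in all, numbered 2 with no filter, 3 without trend, and 2 to 6 without 1 library; the 4 fits with 2 left out Tdo2high CM replicate 2 or 3 or control CM replicate 1 or 3. Genes called in all numbered 394 with no filter, 525 without trend, and 395 to 556 without 1 library; the cause was not tested.

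The deviations of same-numbered samples had r from -0.03 to 0.02, and those of differently numbered samples from -0.08 to 0.09. With 3 libraries per group these values cannot decide whether the numbers pair the samples. With the replicate block 622 genes and 3 related genes were called, Tnfrsf1a (adjusted p = 0.0915 by limma) and Vdac1 (0.0740) no longer among them, and 0 members. Depth is unknown, so a difference between 0 and 0.04 FPKM in Pmaip1 cannot be read.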

Other observations

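Beside the called genes, 3 listed genes lay close to the threshold, and are named after their values were seen. Bnip1, which encodes a BH3-like protein of the endoplasmic reticulum, had a log2 fold change of 0.18 (adjusted p = 0.0618 by limma), Casp6, an executioner caspase, of 0.17 (0.0756), and Diablo, which encodes the mitochondrial antagonist of apoptosis inhibitors, of -0.14 (0.0725). In each of the 3 genes the Tdo2high CM libraries were clear of the control CM libraries, as in 14 of the 43 tested related genes and in 29.2% of all tested genes. With the median of ratios Bnip1 was called, as it was with quantile normalization, and Casp6 was called without control CM replicate 2. Bnip3, a BH3-like gene of mitophagy with a log2 fold change of 0.12 (adjusted p = 0.127 by limma), was called without Tdo2high CM replicate 1 (adjusted p = 0.0499).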
